A study of Ciona robusta with 15 samples.

Results

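Messenger RNA of oral siphons of the sea squirt Ciona robusta was compared between siphons taken 1 day after amputation and siphons amputated and taken at once, called day 0. The 6 libraries of these stages were chosen by their labels from 15 in the series, 3 at day 1 and 3 at day 0, and the 17745 transcripts of the deposited table were all considered. All groups were wild type siblings, grown from the mixed gametes of 2 adults to about 6 months and anesthetized with MS222. The groups used were day 1, day 0, days 3 and 8, and non-regenerating siphons, whose handling relative to day 0 the labels do not describe. Days 3 and 8 served to choose transcripts, in the shared fit and to compare libraries. Each library held polyadenylated RNA from a pool of 5 siphon samples, read on an Ion Proton instrument, so a library shows the mean of several siphons and says nothing of how animals vary. Shared animals between pools are not addressed in the labels, and the p-values here measure only how the pools varied, which may be technical.

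The oral siphon is the muscular, ciliated tube through which a tunicate draws in seawater, and it carries a ring of sensory pigment organs at its rim. After amputation the wound closes first, cells gather beneath it in a blastema, and muscle, nerves and pigment organs are then rebuilt. Dividing progenitor cells in the branchial sac are known in Ciona as a source of cells for distal regrowth. The first day therefore falls in the wound phase, before most of the lost tissue is back. Which genes the transcripts belong to could not be read here, because none of the identifiers matched the gene table used. The tissue label could for that reason not be set against muscle, ciliary, epidermal or hemocyte markers. In bulk tissue, fewer cells of a type and less RNA per cell cannot be told apart.

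The day 1 libraries held 16147922, 18318587 and 21005947 counts for replicates 1, 2 and 3, and the day 0 libraries 18531049, 21646665 and 18713760. The range over the series was 7039611 to 33413013. After a filter on low counts 15328 transcripts were tested, and they made up more than 99.9% of the counts in every library. The library labelled day 1 replicate 3 stood apart from its group: its Spearman correlation across transcripts was 0.953 and 0.945 with day 1 replicates 1 and 2, but 0.975 with day 8 replicate 2. Day 0 replicate 3 also lay apart from the other day 0 libraries, at 0.964 and 0.958 against 0.981 between those. All libraries were kept under their labels, and results that rest on day 1 replicate 3 are also given without it.

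Siphons at day 1 differed from siphons at day 0 by many small shifts in both directions, and very few of them passed the test in edgeR. With 3 pools a stage, a shift that did not pass is not thereby shown to lie within the spread between pools. The median fitted log2 fold change, day 1 over day 0, was 0.04 over the 15328 tested transcripts. The middle of the distribution ran from -0.30 at the 25th percentile to 0.33 at the 75th, and the 5th and 95th percentiles were -1.01 and 0.97. The median absolute log2 fold change was 0.32. More than 2-fold higher were 735 transcripts (4.8%), and more than 2-fold lower were 794 (5.18%). At 1.5-fold the counts were 1941 higher and 2151 lower. The largest differences leaned the other way, with 111 transcripts past 4-fold higher against 41 lower, and 30 past 8-fold higher against 5 lower. These counts were not computed without day 1 replicate 3, and some of the rises rest on it. ENSCINT00000032432 and ENSCINT00000015793, fitted at 25.3-fold and 8.15-fold higher, were high in day 1 replicate 3 alone among the day 1 pools. Few of these differences passed the test against the spread between pools, which called 5 of the 15328 transcripts. With library totals alone as scaling the median was 0.20, and 6.86% of transcripts were past 2-fold higher and 3.29% past 2-fold lower.

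The size of the shift was not the same in the 3 day 1 pools. Day 1 replicate 3 lay more than 2-fold above the day 0 mean in 1652 transcripts and more than 2-fold below it in 1958. For day 1 replicate 1 these counts were 940 and 957, and for day 1 replicate 2 they were 617 and 567. The median absolute log2 difference from the day 0 mean was 0.501 in day 1 replicate 3, 0.343 in replicate 1 and 0.284 in replicate 2. Each day 0 library set against the mean of the other 2 gave 0.245, 0.302 and 0.357 for replicates 1, 2 and 3. Day 1 replicates 1 and 2 therefore lay about as far from day 0 as the day 0 libraries lay from each other, although these means rest on 3 and on 2 libraries. Without day 1 replicate 3, 3.66% of transcripts were more than 2-fold higher and 3.67% more than 2-fold lower.

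**Figure D1:**
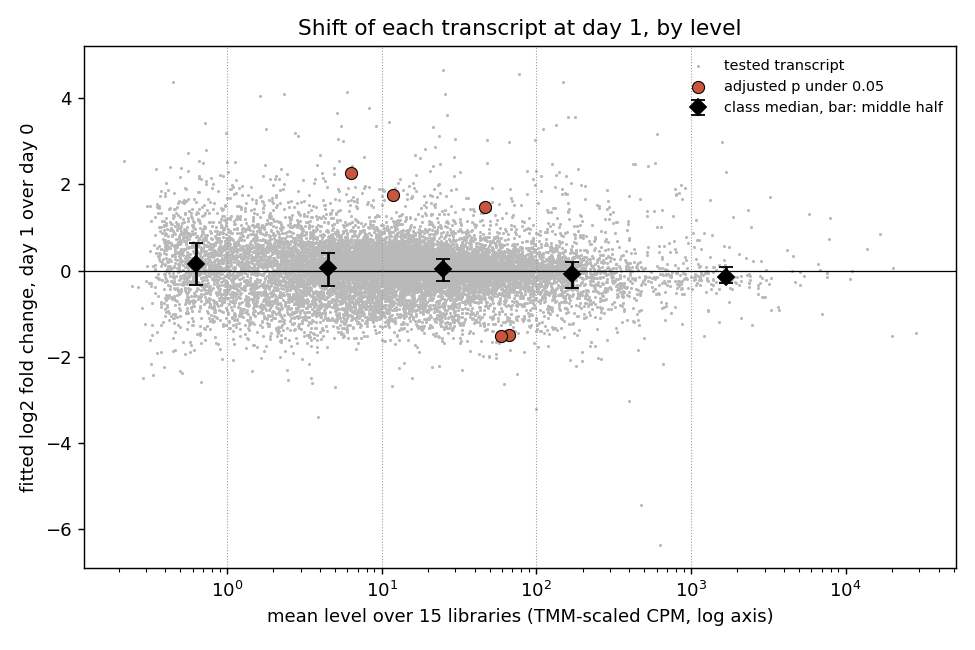
Fitted log2 fold change of each of the 15328 tested transcripts, day 1 over day 0, against its mean level over 15 libraries in TMM-scaled CPM (log axis). Diamonds are the medians of 5 abundance classes with the 25th to 75th percentile as bars, and they go from 0.16 below 1 CPM to -0.14 at 1000 CPM and over; the 5 transcripts that passed the test are the red points.

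Of the 15328 transcripts, 5 passed edgeR's quasi-likelihood test at an adjusted p under 0.05 (0.0326%), of which 3 were higher at day 1 (0.0196%) and 2 lower (0.013%). DESeq2 called 163 of 15280 (1.07%), with 123 higher and 40 lower, and limma voom called 4. With library weights limma voom called 338 (172 higher, 166 lower), and edgeR without replicate 3 of every group, a set of libraries chosen after seeing the data, called 164 (67 higher, 97 lower), so that size and balance of the calls both depended on the tool and the libraries. At an unadjusted p under 0.05 in edgeR 943 transcripts were higher (6.15%) and 670 lower (4.37%). In 1832 transcripts every day 1 library lay above every day 0 library (12%), and in 1728 every day 1 library lay below (11.3%). Without day 1 replicate 3, or without any other of the 6 libraries except day 0 replicate 2, edgeR called 0; without day 0 replicate 2 it called 1. The number of calls thus rests on every one of these libraries. With replicate number as a block in the fit, edgeR also called 0. The direction of the 5 was kept in all 95 alternatives computed for them. That could hardly come out otherwise, because they were picked from these data and their stages did not overlap.

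The called transcripts had low to moderate levels, none above 157 CPM in any of the 6 libraries (CPM are counts scaled to a common library total, here adjusted by the trimmed mean of M-values, TMM). ENSCINT00000032868 had 9.58, 5.87 and 9.46 CPM at day 1, against 1.79, 1.73 and 1.63 CPM at day 0. It rose 4.83-fold, a log2 fold change of 2.27 ± 0.354 (SE, n = 3 pools each, adjusted p = 0.0489 in edgeR), with day 0 libraries very close to each other. ENSCINT00000026108 had 13.2, 13.1 and 11.8 CPM at day 1, against 3.35, 4.84 and 3.02 CPM at day 0. It rose by 1.76 ± 0.234 on the log2 scale (adjusted p = 0.0376 in edgeR), the lowest adjusted p of the comparison, and its 3 day 1 pools were nearly equal. ENSCINT00000024202 had 55.4, 64.3 and 77.3 CPM at day 1, against 22.8, 27.7 and 20.1 CPM at day 0. It rose by 1.48 ± 0.228 on the log2 scale (adjusted p = 0.0489 in edgeR), and its lowest day 1 library, at 55.4 CPM, lay well clear of the highest of day 0, at 27.7 CPM. This transcript lies outside the rule for named transcripts, completes the count of 5 and was chosen after its values were seen.

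The fallen pair, ENSCINT00000002977 and ENSCINT00000002984, had nearly the same pattern at different levels. ENSCINT00000002977 had 50.6, 46.3 and 33.5 CPM at day 1, against 142, 118 and 112 CPM at day 0. ENSCINT00000002984 had 56.8, 54.3 and 38.5 CPM at day 1, against 157, 136 and 127 CPM at day 0. In both the libraries ranked in the same order within each stage, and the fitted day 1 levels were 0.350 and 0.356 of those at day 0. Their log2 fold changes were -1.52 ± 0.238 and -1.49 ± 0.227 (adjusted p = 0.0489 in edgeR for each). Shared reads between the pair were not tested for, and both may stand for 1 signal. None of the 5 had counts within 1% of those of another transcript.

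The level of the called transcripts in non-regenerating siphons differed between them. ENSCINT00000026108 had 27.3, 24.1 and 26.3 CPM in non-regenerating siphons, and its log2 fold change of non-regenerating over day 0 was 2.79 ± 0.241, so that the day 1 libraries lay between. ENSCINT00000032868 had 8.17, 14.8 and 7.06 CPM in non-regenerating siphons, overlapping the day 1 libraries, with 2.56 ± 0.358 over day 0. ENSCINT00000002977 had 26.1, 24.4 and 19.6 CPM and ENSCINT00000002984 28.6, 24.7 and 23.1 CPM in non-regenerating siphons, both below every day 1 library. ENSCINT00000024202 had 32.3, 22.2 and 22.7 CPM in non-regenerating siphons, near its day 0 level, with 0.13 ± 0.225 over day 0. It was thus high at day 1 relative to both other groups, at 65.7 ± 11.03 CPM at day 1 (SD, n = 3), against 23.5 ± 3.87 CPM at day 0. Day 1 over day 0 and non-regenerating over day 0 share the day 0 libraries, so these pairs of values are set side by side only.

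**Figure D2:**
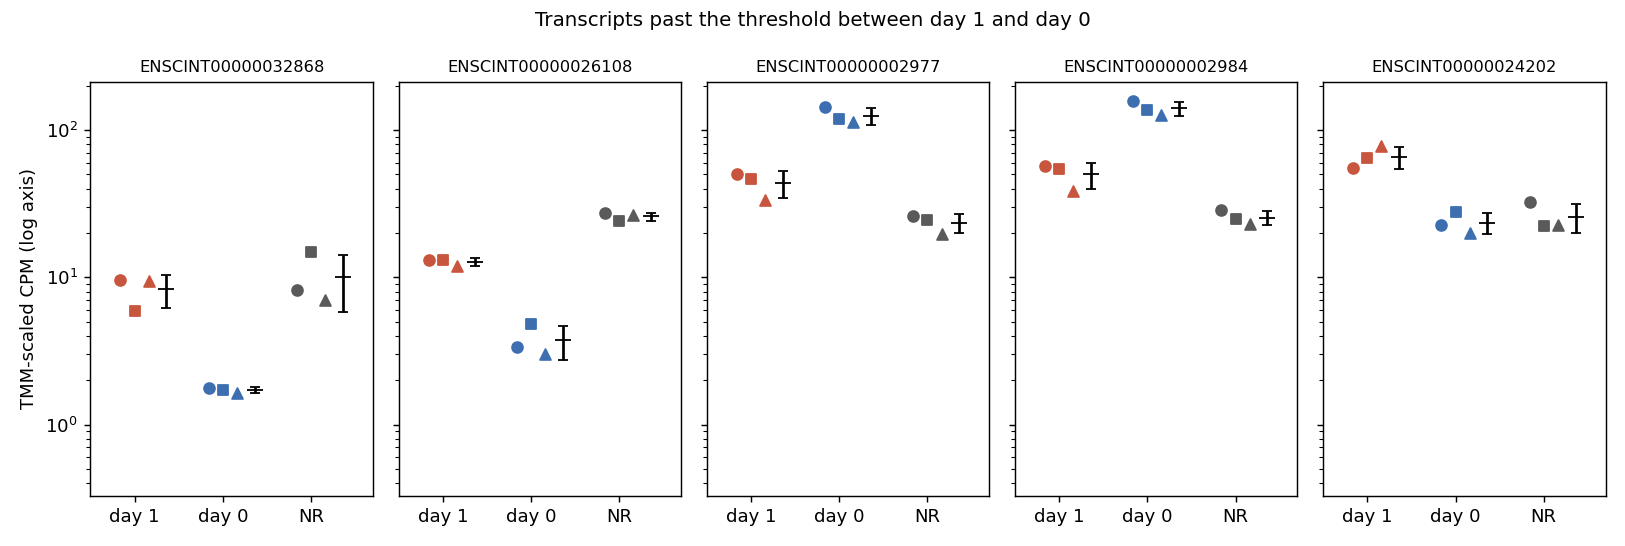
TMM-scaled CPM (log axis) of the 5 transcripts that passed the test, in the 3 libraries each of day 1, day 0 and non-regenerating siphons (NR); circles, squares and triangles are replicates 1, 2 and 3, and bars give mean and SD. No day 1 library overlaps a day 0 library, and ENSCINT00000024202 is the only one of the 5 whose non-regenerating libraries lie at the day 0 level.

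Abundant transcripts lay somewhat lower at day 1 than the rest, while the position of the lowest class depended on single libraries. Transcripts were put in classes by their mean CPM over all 15 libraries, and medians are given relative to the median of all tested transcripts, which another scaling moves. Below 1 CPM (1131 transcripts) the class median lay 0.12 above that of all transcripts on the log2 scale, and from 1 to 10 CPM (5568) 0.03 above. From 10 to 100 CPM (7169) it lay at -0.00, from 100 to 1000 CPM (1312) at -0.11, and at 1000 CPM and over (148) at -0.18. This order was the same with DESeq2's size factors and with library totals alone, where the class at 1000 CPM and over lay at -0.18 in both. When day 1 replicate 3 was left out the 5 values were 0.09, -0.02, 0.01, -0.04 and -0.13, so that the lower classes no longer fell in order. The lowest class moved most with single libraries: leaving out day 1 replicate 1 put it at 0.07, leaving out day 0 replicate 2 at 0.03, and leaving out day 0 replicate 1 at 0.26. The class at 100 to 1000 CPM lay at -0.06 without day 0 replicate 2. The class at 1000 CPM and over lay between -0.21 and -0.13 whichever of the 6 libraries was left out.

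The share of transcripts with a positive fold change went down with level in the fit with TMM scaling, at 60.0% below 1 CPM, 55.2% from 1 to 10, 54.6% from 10 to 100, 42.8% from 100 to 1000 and 31.1% at 1000 CPM and over. The class medians of single libraries show how far the pools differed. At 1000 CPM and over, the median log2 difference from the day 0 mean was -0.03, -0.17 and -0.11 in day 1 replicates 1, 2 and 3, against 0.06, 0.00 and -0.01 in those of day 0, with no overlap. From 100 to 1000 CPM it was 0.02, -0.05 and -0.19 at day 1, against 0.03, 0.08 and -0.11 at day 0, and the stages overlapped. Below 1 CPM it was 0.32, 0.07 and 0.31 at day 1, against 0.19, -0.12 and 0.02 at day 0, again with overlap. At these low levels few counts stand behind each value, and 13.4% of transcripts lay past 2-fold higher and 6.63% past 2-fold lower, against 4.8% and 5.18% of all.

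Calls were most frequent, for the size of the class, at 100 to 1000 CPM in DESeq2. Of the 5 called by edgeR, 4 lay at 10 to 100 CPM and 1 at 1 to 10 CPM. The DESeq2 calls numbered 28 higher and 10 lower at 1 to 10 CPM, 62 and 27 at 10 to 100 CPM, 32 and 3 at 100 to 1000 CPM, and 1 and 0 at 1000 CPM and over. As shares of each class these were 0.682%, 1.24%, 2.67% and 0.676%, with 0 calls below 1 CPM, against 1.07% of all. An unadjusted p under 0.05 in edgeR was likewise most frequent at 100 to 1000 CPM, in 15.2% of that class, while 3.36% of transcripts below 1 CPM had one. At 100 to 1000 CPM higher calls thus outnumbered lower ones although the class median was lower. At 1000 CPM and over, 11 transcripts were higher and 1 lower at an unadjusted p under 0.05 in edgeR, although 31.1% of that class had a positive fold change. Past 2-fold, 10 of the 148 transcripts of that class were higher and 7 lower, so its larger shifts went both ways.

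The counts of day 1 siphons were spread over more transcripts than those of day 0 siphons. The 20 most counted transcripts of each library held 18.8%, 18.8% and 16.8% of the counts at day 1, against 21.96%, 21.5% and 19.7% at day 0. The difference was -2.91 percentage points, with no overlap between the stages, and the two-sided exact permutation p was 0.1, the smallest that 3 libraries against 3 can give (adjusted 0.125 over 5 list lengths). It took 324 ± 27.2 transcripts at day 1 (SD, n = 3), against 259 ± 25.5 at day 0, to reach 50% of the counts (exact permutation p = 0.1). Transcripts at 1000 CPM and over held 38.1 ± 1.24% of the counts at day 1, against 40.4 ± 1.04% at day 0 (exact permutation p = 0.1, adjusted 0.333). The stages nearly touched, at 39.40% in day 1 replicate 1 and 39.44% in day 0 replicate 3. Those at 10 to 100 CPM held 25.9 ± 1.31% at day 1, against 24.1 ± 1.33% at day 0 (exact permutation p = 0.2, adjusted 0.333), and the stages overlapped. In non-regenerating siphons the 20 most counted transcripts held 29.3%, 26.4% and 28.1%, more than in any day 1 or day 0 library. On this measure day 1 lay farther from the non-regenerating libraries than day 0 did.

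**Figure D3:**
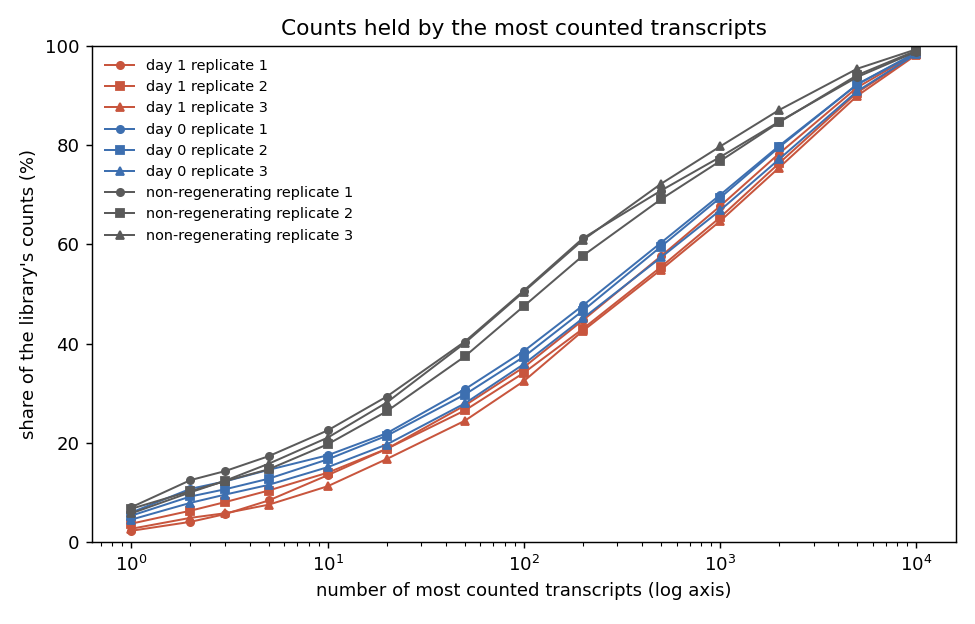
Share of a library's counts (%) held by its most counted transcripts, against their number (log axis), for day 1, day 0 and non-regenerating libraries. At 20 transcripts the day 1 libraries lie at 16.8% to 18.8%, the day 0 libraries at 19.7% to 21.96%, and the non-regenerating libraries at 26.4% to 29.3%.

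The most counted transcripts of day 0, ENSCINT00000009238 and ENSCINT00000009234, differed by more than the whole top list. ENSCINT00000009238 held 1.80%, 3.75% and 0.926% of the counts in day 1 replicates 1, 2 and 3, against 6.01%, 5.37% and 4.57% at day 0, where it ranked first in every library. ENSCINT00000009234 held 1.43%, 2.61% and 0.623% at day 1, against 4.76%, 3.86% and 3.38% at day 0, where it ranked second. Every day 1 library lay below every day 0 library in both. The pair together held 3.71 ± 2.44% at day 1 (SD, n = 3), against 9.31 ± 1.41% at day 0, a difference of -5.60 percentage points. Neither passed the test: the log2 fold changes were -1.46 ± 1.91 and -1.52 ± 1.89 (adjusted p = 0.794 and 0.782 in edgeR). The spread in the fit was estimated over all groups, and in non-regenerating siphons ENSCINT00000009238 held 1.47% of the counts of replicate 1 but 53 and 6 counts in replicates 2 and 3. The ratio of ENSCINT00000009234 to ENSCINT00000009238 ran only from 0.673 to 0.792 in the 6 libraries, and shared reads between them were not tested for. Without the most counted transcript of each library the difference in the share of the top 20 was -0.94 percentage points (exact permutation p = 0.2). The transcript left out was ENSCINT00000034024 in day 1 replicates 1 and 3. It was ENSCINT00000009238 in day 1 replicate 2 and in every day 0 library. This value is therefore not the difference without ENSCINT00000009238 and ENSCINT00000009234.

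The other abundant transcripts differed in both directions, and only ENSCINT00000034024 of them had no overlap between the stages. ENSCINT00000034024 held 2.31%, 1.72% and 2.72% of the counts at day 1, with ranks 1, 3 and 1, against 1.40%, 1.45% and 0.422% at day 0. Its log2 fold change was 0.84 ± 0.610 (adjusted p = 0.619 in edgeR), with replicate 3 its lowest library at day 0. ENSCINT00000028004 held 1.55%, 1.32% and 0.338% at day 1, against 0.673%, 0.389% and 0.0861% at day 0. Within both stages replicate 3 was its lowest library, and the stages overlapped. ENSCINT00000026136 held 0.619%, 0.838% and 2.20% at day 1, against 0.453%, 1.11% and 0.309% at day 0. ENSCINT00000015672 held 0.889%, 0.564% and 0.368% at day 1, against 1.49%, 1.01% and 0.825% at day 0, with a log2 fold change of -1.02 ± 0.508 (adjusted p = 0.493 in edgeR). ENSCINT00000014075 held 1.06%, 1.02% and 0.886% at day 1, against 0.596%, 0.871% and 1.66% at day 0, close to equal in the means. These 7 are all the transcripts among the 5 most abundant of day 1 or of day 0, and none passed the test.

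The top lists of the stages were not distinct sets. The lists of 20 of the 6 libraries named 37 transcripts, of which 13 were in all day 1 lists, 10 in all day 0 lists and 8 in all 6. None was in the list of every day 1 library and of no day 0 library, nor the reverse. Between the mean profiles of the stages 16.6% of the counts would have to change place. The 20 largest losses made up 51.3% of what was lost at day 1, with 33.8% in ENSCINT00000009238 and ENSCINT00000009234 alone, while the 20 largest gains made up 32.3% of what was gained. In these shares of the library total 11616 transcripts gained and 5982 lost, so losses were concentrated in fewer transcripts than gains. Shares of a total must sum to 100%, and a drop in a few abundant transcripts raises the share of all others.

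The 3 day 1 pools were almost as far from each other as from the day 0 pools. The share of counts that differed between a pair of libraries was 20.9% on average between day 1 and day 0 (14.6% to 28.7% over 9 pairs), against 17.0% within day 1 (11.5% to 19.9% over 3 pairs) and 15.1% within day 0 (9.12% to 18.3% over 3 pairs). The median absolute log2 difference was 0.431 between the stages, 0.371 within day 1 and 0.346 within day 0. The distance between stages was thus 1.23 times that within day 1 by share of counts. With day 1 replicate 3 left out it was 1.54 times, and the remaining pair of day 1 libraries lay nearer to each other than the day 0 libraries did, at 0.762 of their distance. The biological coefficient of variation, the spread between pools beyond counting error, was 0.317 at day 1 and 0.287 at day 0. Leaving out day 1 replicate 3 lowered it to 0.212 at day 1, and leaving out day 0 replicate 3 to 0.199 at day 0, in each case the lowest of the 3 leave-outs of that stage.

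**Figure D4:**
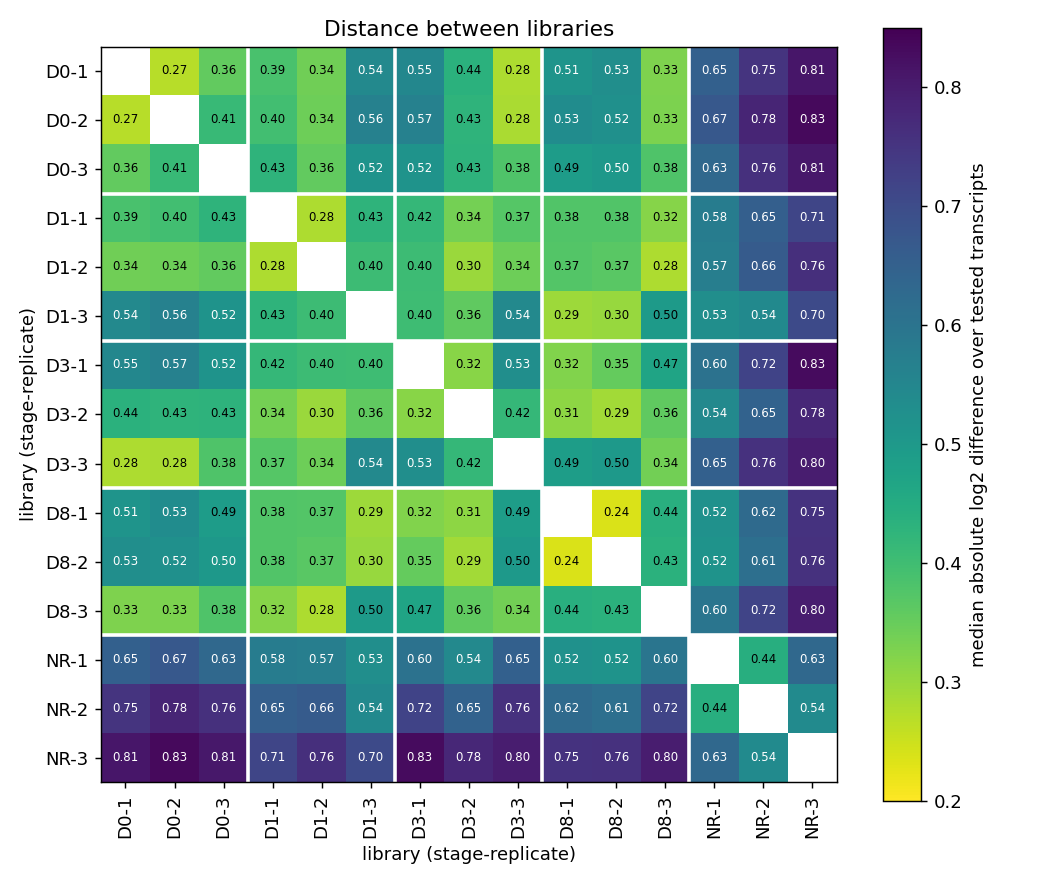
Median absolute log2 difference over the tested transcripts between each pair of the 15 libraries, labelled by stage and replicate (D0, D1, D3 and D8 are days 0, 1, 3 and 8, NR non-regenerating). Day 1 replicate 3 lies 0.43 and 0.40 from day 1 replicates 1 and 2, and 0.29 and 0.30 from day 8 replicates 1 and 2.

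Day 1 replicate 3 differed from both other day 1 libraries by more than 2-fold in many more transcripts than they did in turn. It lay above both in 637 transcripts (4.16%) and below both in 843 (5.50%). Day 1 replicate 1 lay above both others in 186 and below both in 239, and day 1 replicate 2 in 253 and 325. At day 0 replicate 3 was likewise the library apart, above both others in 450 and below both in 709 transcripts. Replicate 3 also lay apart at days 3 and 8. Its median absolute log2 difference at day 3 was 0.529 and 0.418 to replicates 1 and 2, against 0.317 between those. At day 8 it was 0.440 and 0.435, against 0.237. By class, day 1 replicate 3 lay above in 8.78% and below in 10.1% of the transcripts at 1000 CPM and over, but in 2.26% and 4.23% of those at 10 to 100 CPM. Library weights in limma voom were lowest for replicate 3 of each stage. They were 0.484 at day 1 and 0.576 at day 0, where the other 4 libraries of these stages had 1.13 to 2.33. At days 3 and 8 replicate 3 had 0.529 and 0.483.

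The transcripts in which day 1 replicate 3 lay farthest from its group had levels like those of some day 8 libraries. ENSCINT00000032432 had 1.30, 1.73 and 114 CPM at day 1, against 2.46, 1.92 and 0.288 CPM at day 0, with 68.0, 92.7 and 2.18 CPM at day 8. ENSCINT00000015793 had 7.75, 3.41 and 154 CPM at day 1, against 3.79, 4.36 and 12.1 CPM at day 0, with 73.0, 134 and 2.37 CPM at day 8. In both, day 1 replicate 3 and day 8 replicates 1 and 2 were high, and day 8 replicate 3 was low. Among transcripts low in day 1 replicate 3, ENSCINT00000019935 had 41.9, 27.2 and 0.432 CPM at day 1, against 200.5, 227 and 4.03 CPM at day 0, with 2.71, 1.47 and 47.6 CPM at day 8. ENSCINT00000025453 had 24.0, 32.7 and 0.706 CPM at day 1, against 37.9, 51.9 and 9.93 CPM at day 0, with 0.834, 0.821 and 25.4 CPM at day 8. Here day 8 replicate 3 was the high library of its stage. These 4 were picked for the position of day 1 replicate 3, at 6.02 and 4.31, and at -5.88 and -5.03, on the log2 scale relative to the nearer of the other day 1 libraries, and that position is a description. Their adjusted p between day 1 and day 0 was 0.399, 0.444, 0.575 and 0.851 in edgeR. Day 1 replicate 2 was nearest to day 8 replicate 3 by rank correlation (0.980) and to day 1 replicate 1 by log2 difference (0.280). Whether any library carries another stage's label was not tested.

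The shift itself recurred in part across separate pools. For each replicate number the difference day 1 minus day 0 was taken from its own 2 libraries, so that the 3 differences shared none. Across the 15328 transcripts, which are not independent of each other, these differences correlated at r = 0.357 for replicates 1 and 2, 0.363 for 1 and 3 and 0.265 for 2 and 3. All 3 differences had the same sign in 6632 transcripts (43.3%), of which 3504 were higher and 3128 lower at day 1. What share unrelated differences would give was not computed. The replicate numbers served here only to form separate pairs, and the labels do not say whether same-numbered pools were related.

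Day 1 libraries lay nearer to the non-regenerating siphons than day 0 libraries did with TMM scaling. The median absolute log2 difference to the non-regenerating libraries, averaged over the 3 of them, was 0.647, 0.666 and 0.592 for day 1 replicates 1, 2 and 3, against 0.737, 0.763 and 0.733 for those of day 0. The means were 0.635 ± 0.0386 at day 1 and 0.744 ± 0.0165 at day 0 (SD, n = 3 each), a difference of -0.11 with a two-sided exact permutation p of 0.1, the smallest possible. Every day 1 library was nearer than every day 0 library to each of the 3 non-regenerating libraries. Without day 1 replicate 3, the nearest of the 6, the difference was -0.09. With library totals alone as scaling the direction turned, to 0.03 (exact permutation p = 0.6). Spearman correlation with the non-regenerating libraries, which goes by ranks, was 0.886 ± 0.0221 at day 1 and 0.838 ± 0.00411 at day 0 (exact permutation p = 0.1). By share of counts, 35.9 ± 2.84% differed from non-regenerating libraries at day 1 and 41.0 ± 2.78% at day 0, with an exact permutation p of 0.2.

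**Figure D5:**
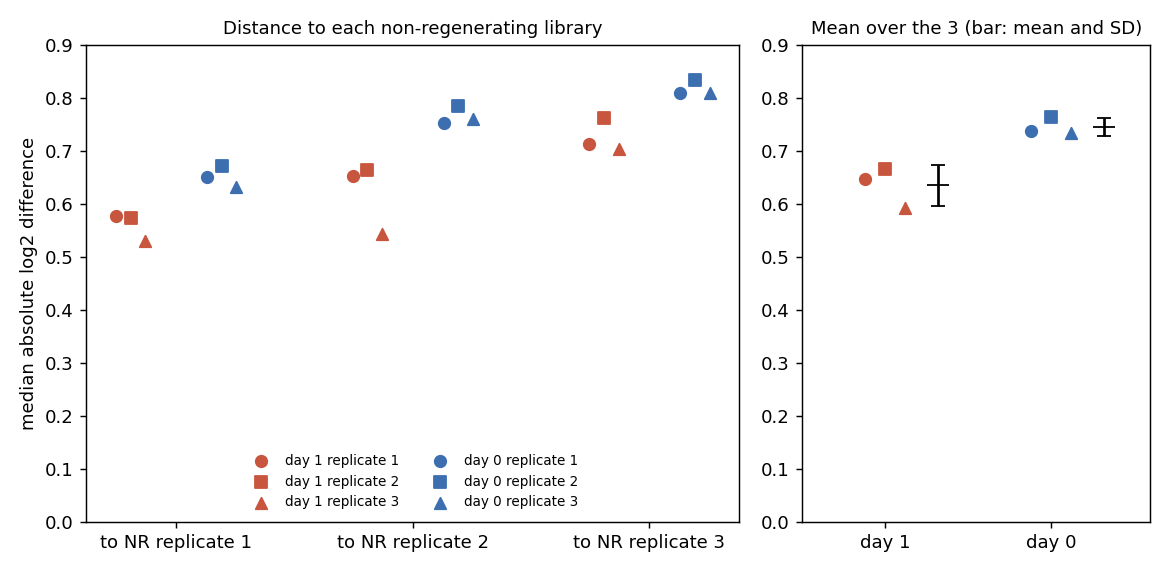
Median absolute log2 difference of each day 1 and day 0 library to each non-regenerating (NR) library (left) and its mean over the 3 (right, bars give mean and SD over 3 libraries), TMM scaling. For each non-regenerating library all 3 day 1 points lie below all 3 day 0 points, with means of 0.635 at day 1 and 0.744 at day 0.

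To see which transcripts this held for, transcripts were chosen by the difference between non-regenerating siphons and the mean of days 3 and 8. Day 1 and day 0 had no part in that contrast, but the filter, scaling and spread behind it came from all 15 libraries. Some libraries of that contrast also resembled the stages compared. By median absolute log2 difference, day 3 replicate 3 lay 0.281 and 0.283 from day 0 replicates 1 and 2. It lay 0.529 and 0.418 from day 3 replicates 1 and 2. Day 8 replicate 3 lay 0.281 from day 1 replicate 2, against 0.440 and 0.435 from day 8 replicates 1 and 2. By edgeR at an adjusted p under 0.05, 2156 transcripts were higher in non-regenerating siphons (14.1%) and 1949 lower (12.7%). Without day 1 replicate 1 these lists held 2018 and 1777. In the first list the median log2 fold change of day 1 over day 0 was 0.16, against 0.04 over all tested transcripts, and 65.6% of the list had a positive one, against 54.0% of all. In the second list the median was -0.16, and 63.5% had a negative fold change, against 46.0% of all. Past 2-fold, the list higher in non-regenerating siphons had 189 transcripts higher (8.77%) and 37 lower (1.72%) at day 1, and the list lower in them had 34 (1.74%) and 167 (8.57%), against 4.8% and 5.18% of all. At an unadjusted p under 0.05 the first list had 273 higher (12.7%) and 33 lower (1.53%), against 6.15% and 4.37% of all. The second list had 53 higher (2.72%) and 229 lower (11.7%). Day 1 libraries lay entirely above day 0 in 402 (18.6%) and entirely below in 104 transcripts (4.82%) of the first list, and in 142 (7.29%) and 415 (21.3%) of the second, against 12% and 11.3% of all.

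The 3 day 1 pools lay on the non-regenerating side by different amounts, and day 1 replicate 2 hardly left the range of day 0. In the list higher in non-regenerating siphons, the median log2 difference from the day 0 mean was 0.14, 0.06 and 0.31 in day 1 replicates 1, 2 and 3, against 0.01, -0.04 and 0.04 in those of day 0. In the list lower in non-regenerating siphons it was -0.14, -0.05 and -0.29 at day 1, against 0.01, 0.06 and -0.04 at day 0. The stages did not overlap in these values, but day 1 replicate 2 lay barely outside the day 0 range in both lists. Relative to each library's own median over all transcripts, the first list lay at 0.11, 0.03 and 0.25 at day 1, against 0.00, -0.05 and 0.03 at day 0, and the stages then overlapped through day 1 replicate 2. The second list lay at -0.17, -0.08 and -0.35 at day 1, against 0.00, 0.06 and -0.05 at day 0, with no overlap. Leaving out day 1 replicate 3 put the medians at 0.07 in the first list and -0.11 in the second, and relative to all transcripts 0.06 and -0.12. Without replicate 3 of days 1, 3 and 8 they were 0.02 and -0.05, and relative to all transcripts 0.03 and -0.03. With library totals alone the lists held 786 and 5971 transcripts, and their medians relative to all were 0.09 and -0.11. Of the 637 transcripts in which day 1 replicate 3 lay above both other day 1 libraries, 179 were in the first list (28.1% of the 637, 8.30% of the list) and 8 in the second. Of the 843 in which it lay below both, 141 were in the second list (16.7% of the 843, 7.23% of the list) and 33 in the first. The lists hold 14.1% and 12.7% of all tested transcripts. Day 0 replicate 3, the library apart in its own stage, had a similar lean upward and a weaker one downward. Of the transcripts in which it lay above both others, 124 were in the first list (27.6%) and 19 in the second. Of those in which it lay below both, 97 were in the second list (13.7%, near the 12.7% of all) and 65 in the first.

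By level, the list higher in non-regenerating siphons had medians of 0.27 below 1 CPM (123 transcripts), 0.24 at 1 to 10 CPM (550), 0.15 at 10 to 100 CPM (1080) and 0.10 at 100 to 1000 CPM (324). At 1000 CPM and over (79 transcripts) the median was -0.12, opposite to the list as a whole and near the median of -0.14 for all transcripts of that level. The list lower in non-regenerating siphons had -0.17 at 1 to 10 CPM (638 transcripts), -0.14 at 10 to 100 CPM (1104) and -0.35 at 100 to 1000 CPM (180). Its remaining classes held 20 transcripts below 1 CPM and 7 at 1000 CPM and over, too few to describe. Of the called transcripts, ENSCINT00000026108 was in the first list, ENSCINT00000002977, ENSCINT00000002984 and ENSCINT00000024202 were in the second, and ENSCINT00000032868 was in neither. ENSCINT00000024202 rose at day 1 and is the one of the 5 that moved away from the non-regenerating level. The list sets non-regenerating siphons, where it had 25.7 CPM on average, against days 3 and 8, where it had 56.1 and 64.0 CPM.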

How the data were processed

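Whole-number read counts per Ensembl transcript were deposited by the authors as a single table of 17745 transcripts, not normalized. Bowtie, HTSeq and TopHat are named, without versions or roles, in the submitters' processing notes. Genome build, annotation and strandedness: not given in the sources used here, so overlapping and antisense transcripts cannot be told apart. Of the identifiers 69 had no count, and 0 matched the reference table of 21486 genes, so lists by pathway or cell type could not be used and no sequence is shown. All 15 libraries were mapped by their labels, and every column was used or matched.

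In R 4.3.3, edgeR 4.0.16 kept 15328 transcripts (filterByExpr, minimum count 10), scaled by TMM and fitted a robust quasi-likelihood model of group means to all 15 libraries, with the spread estimated over all groups. The p-values are two-sided and adjusted by Benjamini-Hochberg over 15328, threshold 0.05, with no minimum fold. Log2 CPM used a prior count of 0.5. Single values per library were tested by exact permutation over libraries. DESeq2 1.42.0 (without independent filtering; 48 adjusted p-values were NA) and limma 3.58.1 (voom) were alternatives, as were other scalings, filters, left-out libraries and the replicate block. Scripts were tested on simulated data. Counts are reads, not molecules. There were 105 sets of transcripts (214 transcripts) whose counts differed by at most 1% of their totals, and 0 of the named transcripts were in one. No pair of replicates agreed within sampling noise (smallest chi-square per degree of freedom 21.2).

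Named transcripts were, by rule, at most 2 called transcripts that rose most and 2 that fell most (no overlap between stages, at least 5 CPM), the 5 most abundant of each stage, and the 2 above and 2 below in which day 1 replicate 3 lay farthest. The members, lists and rules were chosen with earlier results of these data known.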

Additional observations from a re-analysis of the deposited data

How the results depend on the processing

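Of 260 alternative values computed, 158 stayed on the same side of the test or, for untested values, within the spread between libraries. The 5 calls stayed 5 with DESeq2's size factors and without a filter, and were 4 with limma voom. They became 1 with library totals alone, with at least 10 CPM in 3 libraries and with near-identical transcripts counted once, 2 in the 6 libraries alone, and 0 without the non-regenerating group, with the replicate block, and without replicate 3 of days 1, 3 and 8. Leaving out each day 1 or day 0 library gave 0 to 1. Without replicate 3 of every group there were 164 (67 higher, 97 lower), with DESeq2 163 (123 and 40), and with limma voom and library weights 338 (172 and 166). The 5 transcripts passed in 5 to 10 of 19 alternatives each: ENSCINT00000026108 in 10 (adjusted p in edgeR, DESeq2 or limma 1.21e-09 to 0.206), ENSCINT00000032868 in 5 (3.80e-06 to 0.282), ENSCINT00000002977 in 6 (1.26e-05 to 0.323), and ENSCINT00000002984 and ENSCINT00000024202 in 6 each (5.21e-06 to 0.265 for both). The median log2 fold change was 0.010 with DESeq2's size factors, 0.20 with library totals, -0.015 without replicate 3 of days 1, 3 and 8, and 0.0073 to 0.045 over the left-out libraries. Library totals put the class medians at 0.32, 0.23, 0.20, 0.082 and 0.016 from low to high level; that of 10 to 100 CPM was also 0.0077 with DESeq2's size factors, 0.026 with classes from the 6 libraries, and 0.021 to 0.037 over the left-out libraries. Without day 1 replicate 3 the distance between stages was 1.54 times that within day 1 (1.23 with it), and the distance within day 1 was 0.762 of that within day 0 (1.13 with it). The difference in distance to non-regenerating libraries reversed to 0.025 with library totals (exact permutation p = 0.6). The median of the list higher in non-regenerating siphons was 0.29 with library totals and 0.016 without replicate 3 of days 1, 3 and 8. That of the list lower in them was 0.093 with library totals, -0.57 for transcripts that differed at least 4-fold, and -0.36 to -0.078 over the left-out libraries. The alternatives without replicate 3 of several groups and the difference of mean log2 CPM were chosen after seeing the data. The cause of each change was not tested. The libraries share replicate numbers, and same-numbered deviations correlated at 0.0894, 0.136 and 0.140, against -0.124 to 0.0184 between unlike numbers. Each library correlated best with its own number. Because the same-numbered values were not all over 0.1, the numbers are not taken as pairs. Whether same-numbered pools were related was not tested. With 3 pools a stage the exact test cannot go below 0.1.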

Other observations

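Some transcripts varied by more than 10-fold between pools of the same stage. Of 11127 transcripts with a mean of at least 5 CPM over the 6 libraries, 43 did so within day 1 and 42 within day 0, and 9 were in both, 20.9% of the day 1 set and 21.4% of the day 0 set. Day 1 replicate 3 was the highest library in 20 and the lowest in 19 of the 43, and day 0 replicate 3 was the lowest in 33 and the highest in 5 of the 42. ENSCINT00000009128 had 12420, 781 and 6214 CPM at day 1, against 3911, 1957 and 33.4 CPM at day 0. Its log2 fold change was 1.72 ± 1.44 (adjusted p = 0.673 in edgeR), and its stages overlapped. ENSCINT00000036340 had 68.9, 43.4 and 6.20 CPM at day 1, against 3206, 1753 and 193 CPM at day 0. Every day 1 library lay below every day 0 library, replicate 3 was the lowest of each stage, and the log2 fold change of -5.44 ± 2.21 did not pass the test (adjusted p = 0.428 in edgeR). At day 3 it had 2.23, 2.73 and 1626 CPM, and at day 8 1.95, 3.58 and 19.3 CPM, with replicate 3 the highest of each. Both were picked with their values in view and are given as values only.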
